A study of Mus musculus with 2 samples.

Results

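Diff.Spg3 is the name the authors gave to the last of 3 stages of differentiated spermatogonia, the germ cells that stand just before preleptotene (pre.L), when the last DNA synthesis before meiosis takes place. Its cells were taken from the deposited cell table by that stage name alone. There were 579 of them among 17253 annotated cells, 540 in the library labelled Zfp541-/- and 39 in the wild-type library. They made up 6.11% of the 8833 annotated cells of the first library (95% exact Clopper-Pearson interval 5.62 to 6.63%) and 0.463% of the 8420 cells of the other (0.330 to 0.633%). The libraries held other stages in unlike proportions, so these shares have unlike bases. Early pachytene made up 13.2% of the first library and 2.73% of the other, and mid pachytene 28.3% and 14.3%. The authors' cluster 15 held exactly the Diff.Spg3 cells. The study profiled testicular germ cells of adult C57BL/6 mice, with 1 library from WT and 1 from Zfp541-/- animals. ZFP541, the product of the targeted gene, is a zinc finger protein made in the male germ line. After enzymatic digestion, tetraploid cells were isolated by flow sorting, per the protocol, although the sample titles read whole testis, and captured on the 10x Chromium system, which counts unique molecular identifiers (UMIs) near the 3′ end of each transcript. The labels give neither the number of animals in a library nor the part of Zfp541 that is deleted.

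Spermatogonia leave the stem cell pool and differentiate under retinoic acid, divide by mitosis several times, and then replicate their DNA once more and enter meiosis. Retinoic acid induces STRA8, which acts with its partner MEIOSIN to switch on meiotic genes, while YTHDC2 and MEIOC, which bind RNA, help to end the mitotic programme. Differentiating spermatogonia are known for the receptor KIT and the transcription factors SOHLH1, SOHLH2 and DMRTB1.

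Diff.Spg3 was set against Diff.Spg2, the stage before it, with 415 cells, and against pre.L, the stage after it, with 482 cells, all inside the library labelled Zfp541-/-. Both sides of each comparison therefore carry the same genotype, and the stages, not the genotypes, are compared. Levels are summed UMIs of a stage per 1000000 of its UMIs (CPM), and log2 ratios were taken after adding 0.5 to each sum. The stages were drawn by clustering these same cells on their expression and each genotype had 1 library, so every difference between stages is a description with no replicate check and no test. All intervals are 95% intervals for counting error only. A CPM is a share of a stage's RNA, so a lower share of a gene and more RNA from other genes cannot be told apart. The sums held 3350424 UMIs in Diff.Spg2, 2992360 in Diff.Spg3 and 1816600 in pre.L.

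The cells of Diff.Spg3 were shallower than those of Diff.Spg2 and deeper than those of pre.L. The median cell had 5210 UMIs (range 1539 to 21642), against 7722 and 3572.5. The median was 0.478 of that of all annotated cells in the library. In all, 29 cells lay above 2 times the median of their stage. The median share of mitochondrially encoded UMIs was 4.98%, and 271 of the 540 cells had at most 5%. The libraries shared 42 barcodes among all barcodes and 17 among annotated cells, none of which was annotated as Diff.Spg3 in both. Zfp541 itself (chr7:16061814-16096334, mm10) was read first as a check of the labels. It had 33 UMIs in 31 Diff.Spg3 cells of the library labelled Zfp541-/-, or 11.0 CPM (7.59 to 15.5). Its level was 11.3 CPM in Diff.Spg2 and 27.5 CPM in pre.L. The wild-type Diff.Spg3 cells had 2 UMIs, or 21.3 CPM. In lP of the library labelled Zfp541-/- it stood at 70.6 CPM, with a UMI in 78.0% of cells at full depth and 8.33% after thinning. That library thus held reads of the gene. Reads from the 3′ end outside a deleted part would check nothing, and the deleted part is not stated, so these counts do not check the label.

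The proposed markers of Diff.Spg3 were all detected, but only 1 of 5 was higher there than in both neighbouring stages. Stra8 (chr6:34920163-34939344), the retinoic acid target that opens meiosis, stood at 593 CPM in Diff.Spg2, at 251 CPM in Diff.Spg3 (234 to 269.9) and at 1184 CPM in pre.L. Its level thus dipped between a high stage and a higher one, with log2 ratios of -1.24 (-1.36 to -1.12) over Diff.Spg2 and -2.23 (-2.36 to -2.12) over pre.L. The dip was also seen per cell, at 4.79 UMIs in Diff.Spg2, 1.39 in Diff.Spg3 and 4.46 in pre.L. Sohlh2 (chr3:55182028-55209957), a helix-loop-helix factor of differentiating spermatogonia, was below both neighbours as well, at 55.8, 25.7 and 38.0 CPM in the same order, and was highest in zygotene among the stages drawn. Dmrtb1 (chr4:107676290-107684230), a transcription factor of differentiating spermatogonia, was above both, at 57.9, 96.2 and 24.8 CPM. Its log2 ratio was 0.73 (0.47 to 1.00) over Diff.Spg2 and 1.94 (1.50 to 2.44) over pre.L. The replication genes lay between the neighbours. Mcm5 (chr8:75109569-75128439), a subunit of the replicative helicase, stood at 92.2, 119 and 260.4 CPM. Pcna (chr2:132249162-132253314), the sliding clamp of DNA polymerases, stood at 80.6, 97.2 and 113 CPM, and its interval against pre.L spanned 0 (-0.48 to 0.04). Stra8 and Sohlh2 thus set these cells apart from their neighbours only by lower levels. None of the 10 genes with the highest ratio of Diff.Spg3 to all other cells was on any of the 14 marker lists.

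**Figure D1:**
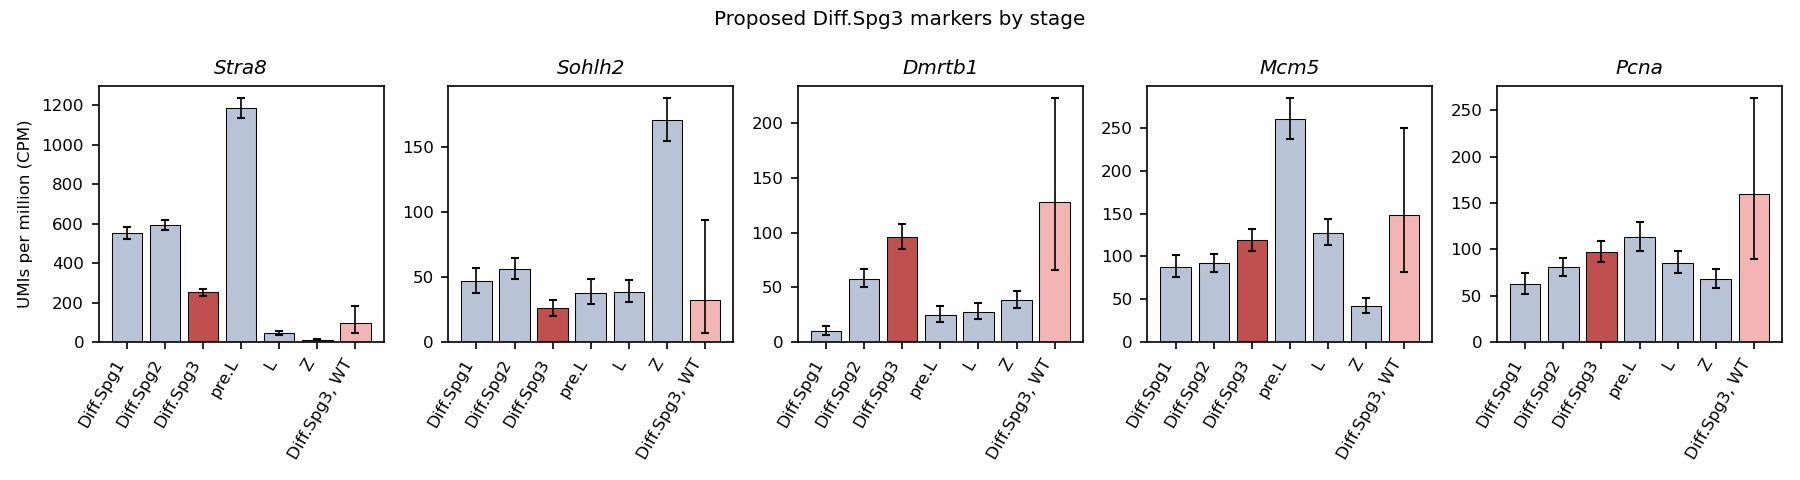
Level (CPM, vertical axes starting at 0) of the 5 proposed markers in the early stages of the library labelled Zfp541-/- and in the wild-type Diff.Spg3 cells. Bars are summed UMIs per 1000000, and error bars are exact Poisson 95% intervals for counting error. Stra8 is lower in Diff.Spg3 (251 CPM) than in Diff.Spg2 (593 CPM) and pre.L (1184 CPM), whereas Dmrtb1 is higher (96.2 CPM) than in both.

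Shares of cells with a UMI were compared after every cell was thinned to 1500 UMIs, since the stages differed in depth. Late pachytene (lP) cells, which are past the spermatogonial programme and had a median of 23690 UMIs, were used as a measure of background for Stra8. After thinning, Stra8 was detected in 28.3% of Diff.Spg3 cells (24.6 to 32.3%), 54.0% of Diff.Spg2 cells, 66.0% of pre.L cells and 0.257% of lP cells. At full depth the shares were 61.3%, 92.5%, 78.0% and 2.47%. Diff.Spg3 was thus the lowest of the 3 early stages at either depth, and far above the lP share. Dmrtb1 was detected in 13.3% of thinned Diff.Spg3 cells, 8.19% of Diff.Spg2 and 3.54% of pre.L cells, and in 38.9% of Diff.Spg3 cells at full depth. For Dmrtb1 the lP cells give no background, because the gene was detected in 47.5% of them after thinning. Mcm5 was detected in 17.8% of thinned Diff.Spg3 cells, 10.1% of Diff.Spg2, 30.2% of pre.L and 1.29% of lP cells (48.3% of Diff.Spg3 cells at full depth). Pcna was at 12.2% in Diff.Spg3, 10.4% in Diff.Spg2 and 17.3% in pre.L (37.8% of Diff.Spg3 cells at full depth). For Pcna too the lP cells give no background, since 86.2% of them had a UMI at full depth and 14.6% after thinning. Sohlh2 was at 3.70% (2.28 to 5.66%), against 7.47% in Diff.Spg2, 5.21% in pre.L (3.40 to 7.59%) and 0.257% in lP. At full depth it was at 12.2% in Diff.Spg3 and 12.2% in pre.L. The share of cells with a UMI of Sohlh2 thus did not set Diff.Spg3 apart from pre.L.

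Sequences before a transcript start of 4 genes on which the description turns are shown here: Stra8 for the dip, Meioc and Prss50 for the genes higher than in Diff.Spg2 and still below pre.L, and Mcm5 for replication. Each run holds the 250 bases before the RefSeq transcript start on the plus strand of GRCm38.p6, 5′ to 3′. The regions are chr6:34920698-34920947 for Stra8, chr11:102665335-102665584 for Meioc, chr9:110857714-110857963 for Prss50 and chr8:75109259-75109508 for Mcm5. Those of Stra8 and Meioc lie inside the GENCODE gene spans given here, which begin further upstream. Capitals mark matches, on either strand, to CNCCTCAG (a motif known for STRA8 and MEIOSIN), to the E2F-type motifs TTTCCCGC and TTTGGCGC (E2F factors drive S phase genes), and to CCAAT, the NF-Y box.
Stra8: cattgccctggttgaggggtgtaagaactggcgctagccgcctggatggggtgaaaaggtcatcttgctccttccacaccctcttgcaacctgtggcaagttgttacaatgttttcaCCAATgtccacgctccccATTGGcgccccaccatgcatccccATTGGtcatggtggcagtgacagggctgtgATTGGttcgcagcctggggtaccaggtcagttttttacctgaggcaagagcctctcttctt
Meioc: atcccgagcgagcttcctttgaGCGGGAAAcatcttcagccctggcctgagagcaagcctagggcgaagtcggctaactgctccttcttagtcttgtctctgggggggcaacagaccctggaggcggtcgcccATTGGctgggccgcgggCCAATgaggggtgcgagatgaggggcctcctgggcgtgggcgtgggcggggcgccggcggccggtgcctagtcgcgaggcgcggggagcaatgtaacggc
Prss50: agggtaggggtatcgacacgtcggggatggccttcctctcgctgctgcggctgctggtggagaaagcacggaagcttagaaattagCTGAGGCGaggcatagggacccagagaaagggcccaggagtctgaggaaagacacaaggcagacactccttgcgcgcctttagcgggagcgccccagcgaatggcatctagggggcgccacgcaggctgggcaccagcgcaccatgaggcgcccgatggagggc
Mcm5: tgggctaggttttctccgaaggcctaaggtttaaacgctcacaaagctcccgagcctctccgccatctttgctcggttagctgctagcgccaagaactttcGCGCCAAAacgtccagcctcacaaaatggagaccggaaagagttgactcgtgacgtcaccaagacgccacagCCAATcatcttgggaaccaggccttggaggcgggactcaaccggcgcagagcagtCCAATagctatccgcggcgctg
In these windows Stra8 held 4 CCAAT matches. Meioc held an E2F-type match and 2 CCAAT matches, Prss50 held 1 match to CNCCTCAG on the minus strand, and Mcm5 held an E2F-type match and 2 CCAAT matches. Of all 32851 RefSeq promoters of this length, 6.42% held CNCCTCAG, 1.30% an E2F-type motif and 33.8% CCAAT. A match is a run of letters and not a shown binding site.

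Against Diff.Spg2, the cells of Diff.Spg3 had more RNA of most measured histone genes, of Meioc and Prss50 and of some X-linked genes, and less of genes of the earlier spermatogonium. Genes of meiotic entry were divided. Most genes differed little between these stages. Among 8820 genes that reached 10 CPM in 1 or both stages, 498 were at least 2-fold higher in Diff.Spg3 (5.65%) and 501 at least 2-fold lower (5.68%). The median log2 ratio was 0.05, with a range from -1.06 to 1.04 between the 5th and 95th percentiles.

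The genes with the highest ratio over Diff.Spg2 were mostly genes that were higher still in pre.L. Meioc (chr11:102663716-102682237), the partner of YTHDC2 at the change from mitosis to meiosis, went from 22.1 CPM in Diff.Spg2 to 179.8 CPM in Diff.Spg3 and 563.7 CPM in pre.L. Its log2 ratio over Diff.Spg2 was 3.02 (2.67 to 3.40). Prss50 (chr9:110857967-110864629), a testis protease-like protein, stood at 27.2, 193 and 1249 CPM, with a log2 ratio of 2.82 (2.51 to 3.17). After thinning, Meioc was detected in 2.41% of Diff.Spg2 cells, 19.1% of Diff.Spg3 cells and 57.1% of pre.L cells, and Prss50 in 2.65%, 20.9% and 85.2%. In lP the thinned shares were 28.7% for Meioc, which late pachytene cells also express (96.0% of them at full depth), and 0.566% for Prss50. At full depth, Meioc had a UMI in 48.0% and Prss50 in 44.6% of Diff.Spg3 cells. These are shares of cells with a UMI, not of expressing cells. Tslrn1 (chrX:62510539-62527011), a testis long noncoding RNA, went from 4.78 to 43.4 to 300.6 CPM, and Nudt17, a nudix hydrolase, from 2.39 to 26.4 to 66.6 CPM. The histone genes Hist1h2aa and Hist1h2ba, which encode the testis variants of H2A and H2B, stood at 293.7 and 68.8 CPM in Diff.Spg3, against 44.2 and 11.9 CPM in Diff.Spg2. Rpl39 (chrX:37082520-37085402), a ribosomal protein gene, went from 124 to 793 to 1618 CPM; reads of its processed copies elsewhere in the genome and of near-identical histone genes may have been split in the counting. Rufy3 and Sgcb, which encodes beta-sarcoglycan, were exceptions, with no higher level in pre.L. Rufy3 stood at 2.69, 25.1 and 24.2 CPM, and Sgcb at 8.36, 58.8 and 41.3 CPM. The tenth gene of this group, Gm26772, owed its sum to few cells and is treated among the observations.

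The genes with the lowest ratio over Diff.Spg2 were mostly genes of earlier spermatogonia, although BC028528 and Irgm1 had their highest level in Diff.Spg2. Lin28a (chr4:134003330-134018841), which blocks let-7 maturation and marks undifferentiated spermatogonia, had 37.3 CPM in Diff.Spg2 and 1.34 CPM in Diff.Spg3 (log2 ratio -4.64, interval -6.70 to -3.41). Ccnd2 (chr6:127125162-127152193), the G1 cyclin D2, had 383 CPM in Diff.Spg1, 43.3 CPM in Diff.Spg2, 4.01 CPM in Diff.Spg3 and 0.55 CPM in pre.L. The paternally expressed Notch-type ligand Dlk1 stood at 38.2 and 1.67 CPM and the methylarginine hydrolase Ddah1 at 48.1 and 2.67 CPM. The remaining genes of this group were BC028528, Hist1h2ae, Asb9, Irgm1, Rgs10 and Utrn. Rhox10, a reproductive homeobox gene on the X, had 43 UMIs in Diff.Spg2 and none in Diff.Spg3, which makes it at least 12.8-fold lower when 3 counts are allowed for the 0.

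**Figure D2:**
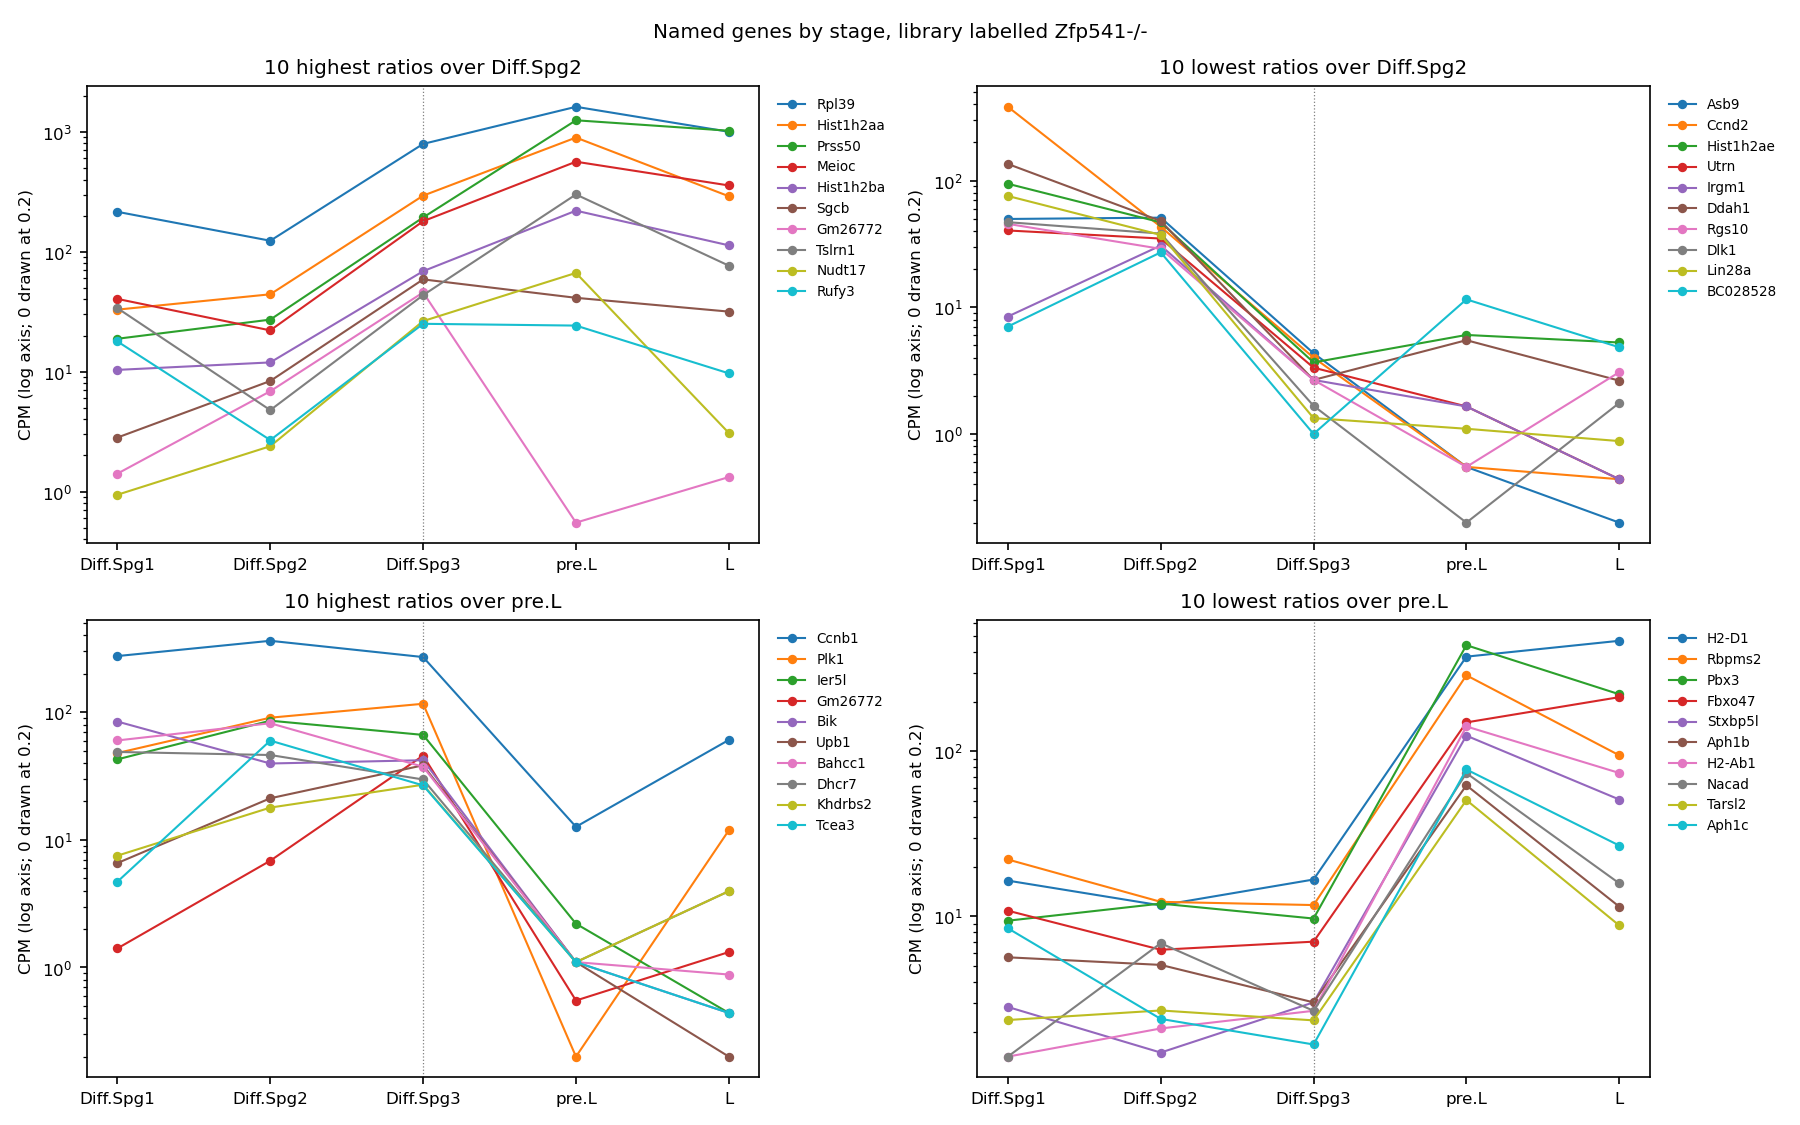
Level (CPM, log axis, 0 drawn at 0.2) of the genes with the highest and lowest ratios over each neighbouring stage, across 5 stages of the library labelled Zfp541-/-. Each line is a gene, and the dotted line marks Diff.Spg3. Meioc and Prss50 climb from Diff.Spg2 through Diff.Spg3 to pre.L, while Plk1 and Ccnb1 drop between Diff.Spg3 and pre.L.

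Lists of genes of known processes were read by the number of measured members at least 2-fold higher or lower and by their median log2 ratio, beside the 5.65% and 5.68% of all genes and the median of 0.05. No list stands for a test. Against Diff.Spg2, the histone list had the highest median. Of 17 measured histone genes, 9 were at least 2-fold higher and 1 lower, with a median of 1.33. Hist1h1a, a linker histone of dividing cells, stood at 118, 309 and 415 CPM in Diff.Spg2, Diff.Spg3 and pre.L, and H2afx, the variant marked at DNA breaks, at 62.1, 156 and 244 CPM. The replacement histone gene H3f3b stood at 3557, 7023 and 6021 CPM, within a list sum of 7044, 11041 and 10422 CPM. Of the 17 histone genes, 12 were higher than in Diff.Spg2 by any margin and 5 lower. Among the lower were H3f3a, at 1438, 1330 and 493 CPM, and H2afv, at 948, 823 and 329 CPM. Of 18 synaptonemal complex, axis and cohesin genes, 2 were at least 2-fold higher and 0 lower, with a median of 0.45. Smc1a, an X-linked cohesin subunit, was 1 of these, at 39.4, 105 and 55.6 CPM, and Rec8, the meiotic kleisin, was the other, at 9.25, 20.7 and 26.4 CPM.

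Meiotic entry genes were divided against Diff.Spg2, with 4 of the 10 measured genes (of 18 listed) at least 2-fold higher and 1, Stra8, lower, and a median of 0.18. Ythdc2, the RNA helicase that binds MEIOC, stood at 57.9, 130 and 267.5 CPM. Gm4969, the gene of MEIOSIN, stood at 3.58, 8.02 and 90.8 CPM, so that the partner of STRA8 was close to its floor in Diff.Spg3 and high only in pre.L. The summed level of this list was lower in Diff.Spg3 (2167 CPM) than in Diff.Spg2 (2444 CPM), against the sign of its median. Of 11 genes of double-strand break formation, 1 was at least 2-fold higher and 0 lower, with a median of 0.18. Prdm9, the methyltransferase that places break sites, was at 5.97, 25.4 and 198 CPM. None of 17 recombinase and strand exchange genes was 2-fold higher or lower, and their median was 0.20. Rad51ap2 (8.66, 10.4 and 157 CPM) and Meiob (11.3, 8.69 and 132 CPM), both of meiotic recombination, show how far these genes were from their pre.L levels.

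Regulators of spermatogonial differentiation were on the lower side, with 3 of 20 at least 2-fold higher and 6 lower than in Diff.Spg2 and a median of -0.79. Kit, the receptor for stem cell factor, stood at 276, 164 and 67.2 CPM. Uchl1, a deubiquitinase abundant in spermatogonia, stood at 1039, 549 and 80.4 CPM, and Sohlh1 at 140, 81.2 and 12.7 CPM. Sall4, a zinc finger factor of undifferentiated and early differentiating cells, was at 86.6, 33.8 and 2.20 CPM, and Egr4, an early growth response factor, at 31.6, 7.69 and 1.65 CPM. The 3 genes at least 2-fold higher were Prss50, Rhox13 and Tex101. Stra8, which is also on this list and was highest in pre.L among these stages, was among the 6 lower genes. Rhox13 was at 71.6, 151 and 295 CPM and the surface protein gene Tex101 at 257, 557 and 3248 CPM. Glycolysis had 0 of 12 genes at least 2-fold higher and 5 lower, with a median of -0.54. Hk2, hexokinase 2, stood at 58.8, 10.4 and 2.20 CPM and Aldoa, aldolase A, at 127, 44.4 and 11.6 CPM, while Pkm, pyruvate kinase, dipped at 57.3, 23.7 and 79.3 CPM.

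Lists of replication and mitosis had few genes past 2-fold against Diff.Spg2, whereas the G1 list had many. The protocol names a sort for tetraploid cells, which selects by DNA content, while the sample titles read whole testis. The authors' stage names also include round and elongated spermatids, which are not tetraploid. Where the sort was made, lists of the cell cycle describe the sorted cells only. The part of the sort in these values was not tested. Of 24 licensing and origin firing genes, 1 was at least 2-fold higher and 0 lower (median 0.21). That gene was Gins2, of the replicative helicase, at 28.1, 58.8 and 138 CPM. Of 24 genes of DNA synthesis and forks, 1 was higher and 1 lower (median 0.29), and of 18 genes of deoxynucleotide supply none was either (median 0.05). None of 30 genes of mitosis and G2/M was 2-fold higher or lower (median 0.08). The G1 list was split, with 6 of 22 at least 2-fold higher and 4 lower (median 0.45, or 0.01 with a minimum of 50 CPM). Ccne2, cyclin E2 of the G1/S step, stood at 60.3, 139 and 317 CPM and E2f2, an activator of S phase genes, at 3.88, 18.4 and 5.50 CPM. The DNA methylation list had 0 higher and 1 lower of 12 (median -0.02), that 1 being the de novo methyltransferase gene Dnmt3b, at 154, 60.2 and 3.30 CPM. Of 18 piRNA pathway genes, 0 were higher and 2 lower (median -0.31), with Asz1, a germ granule protein, at 86.3, 36.4 and 49.0 CPM. Of 5 measured genes of the ZFP541 complex, none was 2-fold higher or lower (median -0.04).

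Stress and housekeeping lists completed the comparison with Diff.Spg2. Of 14 p53 target and apoptosis genes, 2 were at least 2-fold higher and 0 lower (median 0.05), and of 13 immediate early and heat shock genes, 1 and 0 (median 0.51, the highest after histones, but 0.01 with a minimum of 50 CPM), although the summed level of the latter was 5302 CPM in Diff.Spg3 and 6656 CPM in Diff.Spg2. Cytosolic ribosomal protein genes had 1 of 82 higher, Rpl39, and 1 lower (median 0.01). The 13 mitochondrially encoded genes had 0 in either direction (median -0.08).

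Against pre.L, the cells of Diff.Spg3 had more RNA of most listed genes of cell division and of spermatogonial differentiation. They had far less of most genes of the meiotic chromosome axis and recombination. Among 8755 genes, 1845 were at least 2-fold higher in Diff.Spg3 (21.1%) and 1380 at least 2-fold lower (15.8%). The median log2 ratio was 0.10, and the 5th and 95th percentiles were -1.90 and 2.26. When only cells of at most 5% mitochondrial UMIs were kept, the first count became 1385 and the other 1482. With a minimum of 50 CPM they were 714 and 873. Which of the directions held more genes thus depended on that filter and on the minimum level.

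Genes of mitosis were among those higher than in pre.L, and 2 of them, Plk1 and Ccnb1, were among the 10 highest ratios. Plk1 (chr7:122159439-122169873), the mitotic polo-like kinase, had 349 UMIs in Diff.Spg3, or 117 CPM, and 0 in pre.L, which makes it at least 70.6-fold higher. Thinned cells had a UMI of Plk1 in 13.7% of Diff.Spg3, 11.3% of Diff.Spg2, 0% of pre.L and 0.720% of lP. Ccnb1 (chr13:100778650-100786570), cyclin B1, stood at 271 CPM in Diff.Spg3 and at 12.7 CPM in pre.L (log2 ratio 4.39, interval 3.82 to 5.09). Of 30 genes of mitosis and G2/M, 17 were at least 2-fold higher and 3 lower, with a median of 1.22. Aurkb, the kinase of the chromosomal passenger complex, stood at 110, 84.2 and 4.40 CPM in Diff.Spg2, Diff.Spg3 and pre.L, Ube2c, which works with the anaphase-promoting complex, at 282, 306 and 34.1 CPM, and Cdk1 at 92.8, 128 and 24.8 CPM. The 3 genes at least 2-fold lower were Top2a, topoisomerase II, at 445, 588 and 1225 CPM, Bub1 at 108, 107.6 and 416 CPM, and Kif23 at 113, 123 and 326 CPM. Most of the mitotic genes thus stood near their Diff.Spg2 level in Diff.Spg3 and were lower in pre.L. The summed level of the list differed less, at 6428, 6279 and 5047 CPM.

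Most of the other genes with the highest ratio over pre.L had 2 UMIs there, so their size is loosely bounded. The pro-apoptotic gene Bik had 42.1 CPM in Diff.Spg3 and 1.10 CPM in pre.L (log2 ratio 4.94, interval 3.37 to 8.32). Dhcr7, of the last step of cholesterol synthesis, had 29.7 and 1.10 CPM (4.44, 2.86 to 7.82). The group also held Gm26772, Upb1, Bahcc1, Ier5l, Khdrbs2 and Tcea3. Zbtb16, the PLZF factor of spermatogonial stem and progenitor cells, had 69 UMIs in Diff.Spg3 and 0 in pre.L (at least 14.0-fold higher), and E2f8, a repressor of E2F target genes, had 33 and 0 (at least 6.68-fold higher). Diff.Spg3 thus still held RNA of a progenitor factor that pre.L lacked at this depth.

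The genes with the lowest ratio over pre.L included the antigen presentation genes H2-Ab1 and H2-D1, and Fbxo47, a gene of meiotic prophase. H2-Ab1 (chr17:34257689-34269419), a class II histocompatibility gene, had 8 UMIs in Diff.Spg3 and 257 in pre.L, a log2 ratio of -5.64 (-6.95 to -4.73). H2-D1, a class I gene, stood at 16.7 and 375 CPM. Macrophage markers, of cells that express both classes, summed to 0.668 CPM in Diff.Spg3 and 4.95 CPM in pre.L. Pbx3 (chr2:34171457-34373142), a homeodomain factor, stood at 9.69 and 439.8 CPM, and Fbxo47, an F-box protein needed for chromosome synapsis, at 7.02 and 149.7 CPM. The group also held Stxbp5l, Nacad, Rbpms2, Tarsl2, Aph1b and Aph1c, of which the last 2 are near-identical paralogs whose reads may have been split.

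The lists of meiosis had the lowest medians against pre.L. Of 19 synaptonemal complex, axis and cohesin genes, 1 was at least 2-fold higher and 14 lower (median -1.59). Sycp3, of the chromosome axis, stood at 399, 449 and 2513 CPM in the 3 stages, and Rad21l, a meiotic kleisin, at 2.39, 4.68 and 71.0 CPM. The exception was Rad21, the kleisin of mitotic cohesin, at 215, 145 and 24.8 CPM. Of 11 genes of break formation, 0 were higher and 7 lower (median -1.96), and of 19 recombinase genes, 0 and 14 (median -1.96). Meiotic entry had 0 of 14 higher and 8 lower (median -1.35). The summed level of the synaptonemal list was 3156 CPM in Diff.Spg2, 4025 CPM in Diff.Spg3 and 13375 CPM in pre.L. In these lists Diff.Spg3 was therefore much nearer to Diff.Spg2 than to pre.L.

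The lists of spermatogonia and metabolism had positive medians against pre.L. Regulators of differentiation had 10 of 16 at least 2-fold higher and 3 lower (median 1.38), with Dmrt1, which holds off meiosis, at 238, 187 and 52.3 CPM and Crabp1, a retinoic acid binding protein, at 642, 388 and 46.8 CPM. DNA methylation had 6 of 12 higher and 0 lower (median 0.98), glycolysis 6 of 12 and 1 (median 0.81, but -0.04 with no minimum), and ribosomal proteins 18 of 82 and 2 (median 0.53). p53 targets had 7 of 15 higher and 2 lower (median 0.26). Trp53 itself stood at 66.9, 65.8 and 7.16 CPM and its target Ccng1 at 76.1, 94.9 and 7.16 CPM. Immediate early and heat shock genes had 5 of 13 higher and 0 lower (median 0.21).

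The S phase lists were split against pre.L. Licensing had 2 of 24 at least 2-fold higher and 4 lower (median -0.43), DNA synthesis 3 of 25 and 4 (median -0.14), and deoxynucleotide supply 5 of 18 and 2 (median 0.07). Cdt1, which loads the helicase before S phase, was higher in Diff.Spg3 than in pre.L, at 49.0, 56.8 and 6.06 CPM in the 3 stages, as was Mcm2 at 164, 140 and 51.7 CPM, whereas Mcm5 and Gins2 were lower. The G1 list had 8 of 20 higher and 4 lower (median 0.28). That median turned to -0.68 with a minimum of 50 CPM and to -0.14 with cells of at most 5% mitochondrial UMIs. Ccnd1, cyclin D1, stood at 221, 298 and 53.9 CPM, while Ccne2 was lower than in pre.L. Histones had 2 of 16 higher and 5 lower (median -0.69), the X-linked list 2 of 11 and 3 (median -0.72), the piRNA pathway 4 of 18 and 3 (median -0.02), the ZFP541 complex 1 of 5 and 1 (median -0.40), and the mitochondrially encoded genes 0 of 13 in either direction (median -0.15). Genes without a UMI in 1 of the stages did not alter any of these medians when set at their bound.

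**Figure D3:**
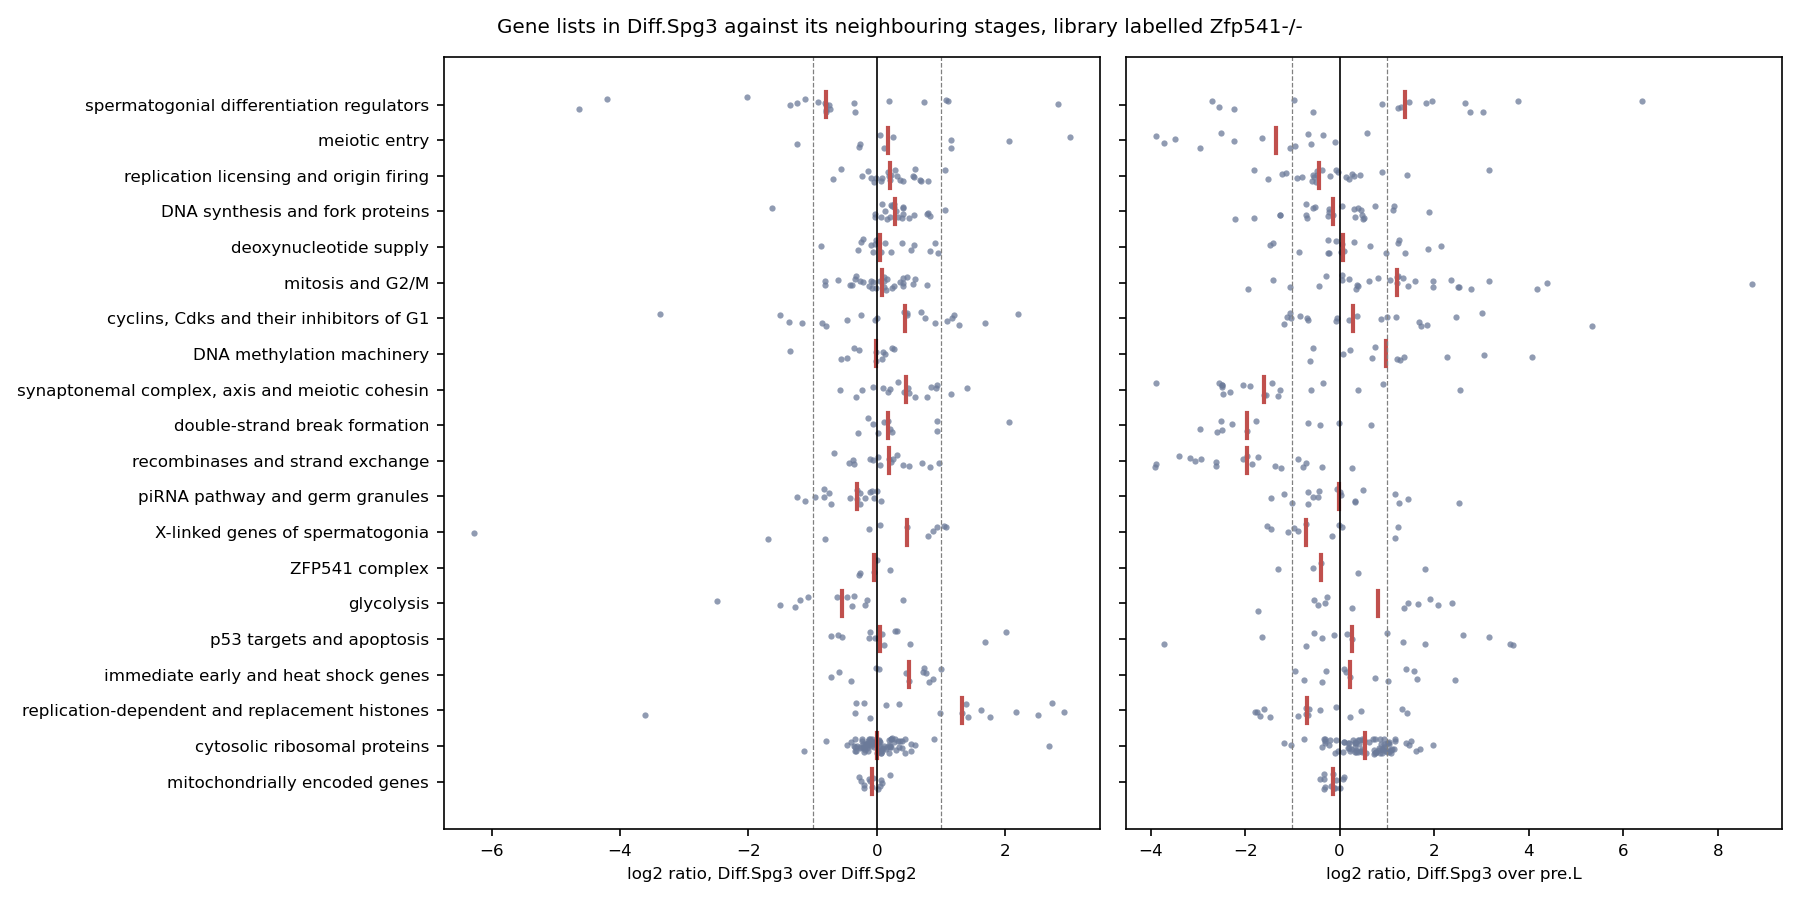
Log2 ratio of the measured members of each gene list in Diff.Spg3 over Diff.Spg2 and over pre.L, in the library labelled Zfp541-/-. Each point is a gene, red bars mark medians, the solid line marks a ratio of 0 and the dashed lines mark 2-fold differences. Histones have the highest median over Diff.Spg2 (1.33), and break formation and recombinase genes the lowest over pre.L (-1.96 each).

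For most genes the level in Diff.Spg3 lay between those of its neighbours. Of 9221 genes that reached 10 CPM in any of the 3 stages, 5202 (56.4%) lay between, 2462 (26.7%) above both by any margin and 1557 (16.9%) below both. A level at least 2-fold above both neighbours was seen for 88 genes (0.954%) and at least 2-fold below both for 86 (0.933%). At least 2-fold above Diff.Spg2 and 2-fold below pre.L were 177 genes (1.92%), and 232 (2.52%) had the opposite order. Diff.Spg3 is thus described by few genes of its own.

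The 10 clearest peak genes of Diff.Spg3 included the mitotic spindle genes Ska1 and Knstrn. Of the 30 listed genes of mitosis and G2/M, however, none was 2-fold above Diff.Spg2. Ska1, of the complex that couples kinetochores to microtubules, stood at 24.8, 72.2 and 18.2 CPM in Diff.Spg2, Diff.Spg3 and pre.L. Knstrn, the spindle protein kinastrin, stood at 26.3, 64.5 and 19.3 CPM. Ptms, parathymosin, was at 69.2, 190.2 and 47.3 CPM and Dusp12, a dual specificity phosphatase, at 13.1, 53.8 and 12.7 CPM. Impa1, inositol monophosphatase, and Prrc1 were also among the 10 peak genes. The other 4 of them, Gm26772, Tctn1, Arhgef40 and Alox8, had over 80 of every 100 UMIs in 5 cells each and are not read as genes of the stage. Genes with a trough included Kmt2c, a histone H3 lysine methyltransferase, at 64.2, 19.4 and 234 CPM, and Figla, a germ cell transcription factor, at 41.2, 15.0 and 47.3 CPM. Clic4, a chloride channel protein, was at 92.5, 36.1 and 137 CPM, Dlgap4 at 32.2, 6.02 and 33.0 CPM and Spg21 at 26.6, 6.68 and 27.0 CPM. In Dlgap4, Spg21 and Figla the levels on either side of Diff.Spg3 were close to each other.

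The 10 genes with the most UMIs in Diff.Spg3, ribosomal and mitochondrially encoded genes aside, were H3f3b, Ptma, Hmgb2, Hsp90ab1, Ncl, Hsp90aa1, Ppia, Fau, Tubb4b and Hmgb1. Most are genes of chromatin, protein folding and growth that dividing cells make in quantity. Hsp90ab1, a constitutive chaperone, stood at 2807 CPM in Diff.Spg3 and 792 CPM in pre.L. Per cell, H3f3b had 28.7 UMIs in Diff.Spg2, 38.9 in Diff.Spg3 and 22.7 in pre.L.

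The cells varied among themselves along the authors' pseudotime score. The 540 cells were put in order of that score and cut into 4 bins of 135 cells, Q1 to Q4. How the score was made is not known from the sources, and it may rest on the same genes, so the trend is a description. Median UMIs per cell were 4105, 4683, 5937 and 5500 and the median mitochondrial share was 5.92, 5.47, 4.57 and 4.66% from the first bin to the last, and the part of either in the trends was not tested. Between the last bin and the first, 883 of 9154 genes were at least 2-fold higher (9.65%) and 886 at least 2-fold lower (9.68%).

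Several genes with a higher level in pre.L than in Diff.Spg3 had their highest level in the last bin. Prss50 stood at 48.4, 61.2, 105 and 499 CPM from the first to the last, a log2 ratio of 3.34 (2.85 to 3.93) between the ends. Tex101 stood at 233, 257, 361 and 1242 CPM and Meioc at 80.2, 83.5, 158 and 356 CPM. In each of these genes most of the gain fell between the last 2 bins. Rec8 stood at 4.54, 7.46, 13.4 and 51.2 CPM, Rpl39 at 318, 413, 785 and 1479 CPM, and Tslrn1 at 9.08, 4.48, 21.9 and 123 CPM. Prdm9 was more even, at 7.57, 20.9, 29.2 and 39.3 CPM. The meiotic entry list, which holds Meioc, Rec8 and Prdm9, summed to 1890, 2008, 2108 and 2569 CPM. Not all of its members rose. Ythdc2 stood at 121, 133, 138 and 126 CPM, Rbm46 at 265, 267, 268 and 273 CPM and Tcfl5 at 103, 103, 114 and 87.0 CPM. Stra8 had its lowest level in Q3, at 249.7, 233, 170 and 347 CPM, and none of the bins reached the 593 CPM of Diff.Spg2. The low level of Stra8 was thus present in all bins.

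Cell division genes peaked in the middle bins. Ccnb1 stood at 235, 307, 391 and 154 CPM and Plk1 at 98.4, 157, 155 and 61.9 CPM. Cenpf, a kinetochore protein of G2 and mitosis, stood at 1174, 1356, 1135 and 524 CPM, and the summed mitosis list at 5928, 7393, 7145 and 4818 CPM. Crabp1 was lower in each bin than in the one before, at 551, 485, 365 and 204 CPM, as did H3f3b, at 8454, 7676, 7020 and 5378 CPM. The marker list of leptotene and zygotene summed to 1716, 1897, 2224 and 3896 CPM. The synaptonemal list summed to 3192, 3568, 3989 and 5081 CPM and break formation to 584, 627, 678 and 906 CPM. Recombinase and strand exchange genes did not follow them, at 1453, 1460, 1515 and 1427 CPM.

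**Figure D4:**
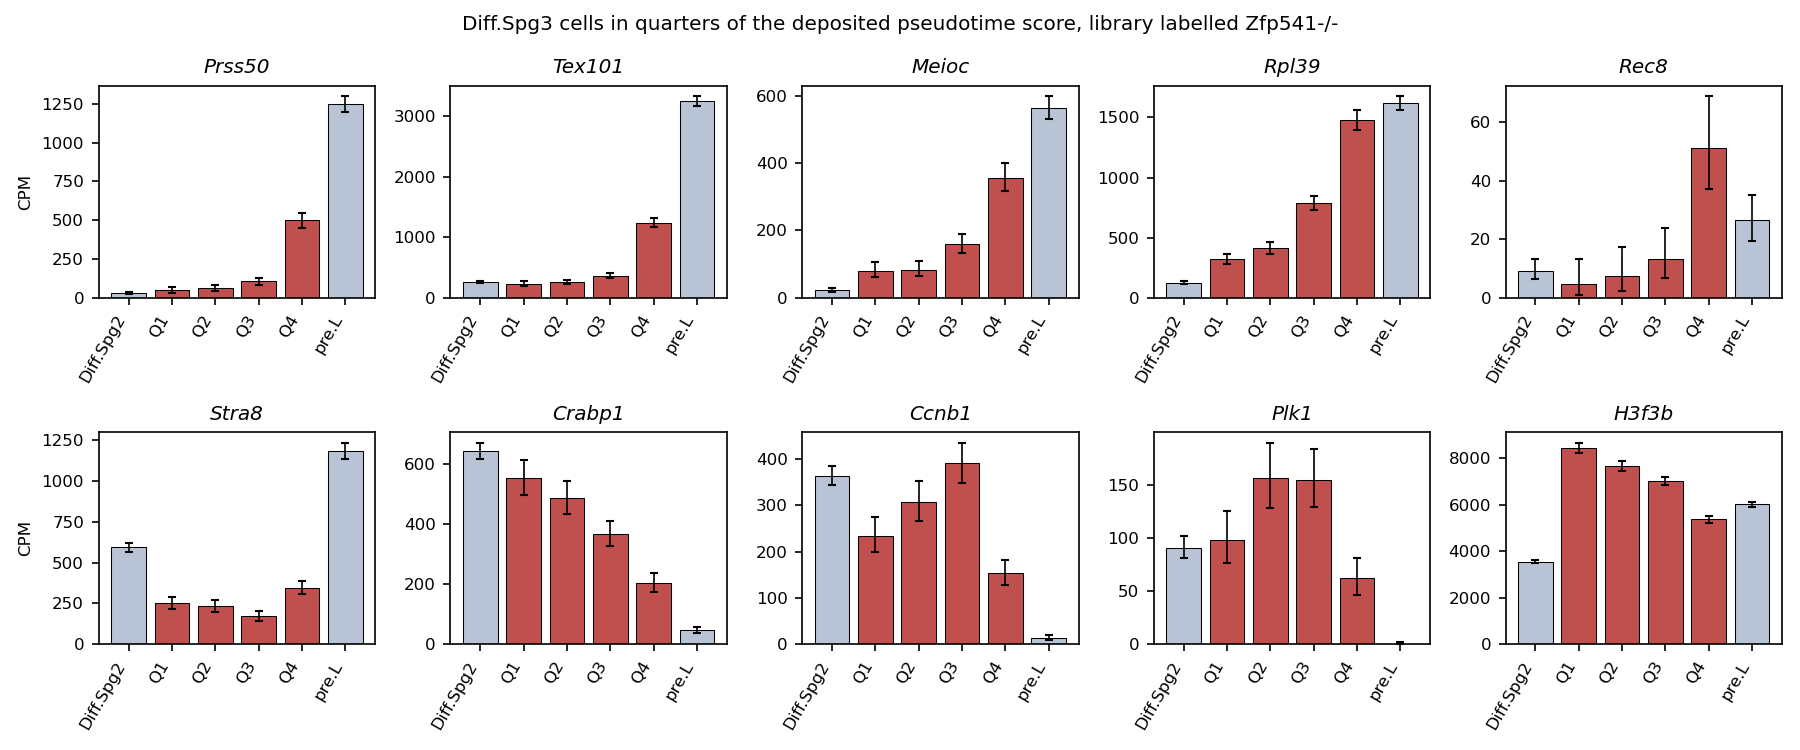
Level (CPM, vertical axes starting at 0) of named genes in bins Q1 to Q4 of the Diff.Spg3 cells by the deposited pseudotime score, with Diff.Spg2 and pre.L at the sides, in the library labelled Zfp541-/-. Error bars are exact Poisson 95% intervals for counting error. Prss50 reaches 499 CPM in Q4 from 48.4 CPM in Q1, while Ccnb1 has its lowest level (154 CPM) in Q4.

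X-linked genes formed a larger share of the genes higher than in Diff.Spg2 than of all measured genes. They made up 301 of the 8820 measured genes (3.41%), 47 of the 498 genes at least 2-fold higher (9.44%) and 16 of the 501 genes at least 2-fold lower (3.19%), and their median log2 ratio was 0.16. Usp26 (chrX:51753959-51801233), a testis deubiquitinase, was above both neighbours, at 293, 607 and 269 CPM, and Tex11 (chrX:100838648-101059667), which is needed for crossovers, stood at 113, 217 and 219 CPM. Of the 11 measured genes on the list of X-linked spermatogonial genes, 2 were at least 2-fold higher and 2 lower (median 0.47). The share of UMIs from all X-linked genes was 1.78% in Diff.Spg1, 1.77% in Diff.Spg2, 1.96% in Diff.Spg3 (1.95 to 1.98%), 2.53% in pre.L and 2.65% in leptotene. Without Rpl39 it was 1.88% in Diff.Spg3. It was 0.964% in zygotene and 0.0357% in mid pachytene, where the sex chromosomes are known to be silenced. Diff.Spg3 thus lay before the highest X-linked share. Against pre.L, X-linked genes were 58 of the 1845 higher genes (3.14%) and 77 of the 1380 lower ones (5.58%), beside 308 of 8755 (3.52%).

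**Figure D5:**
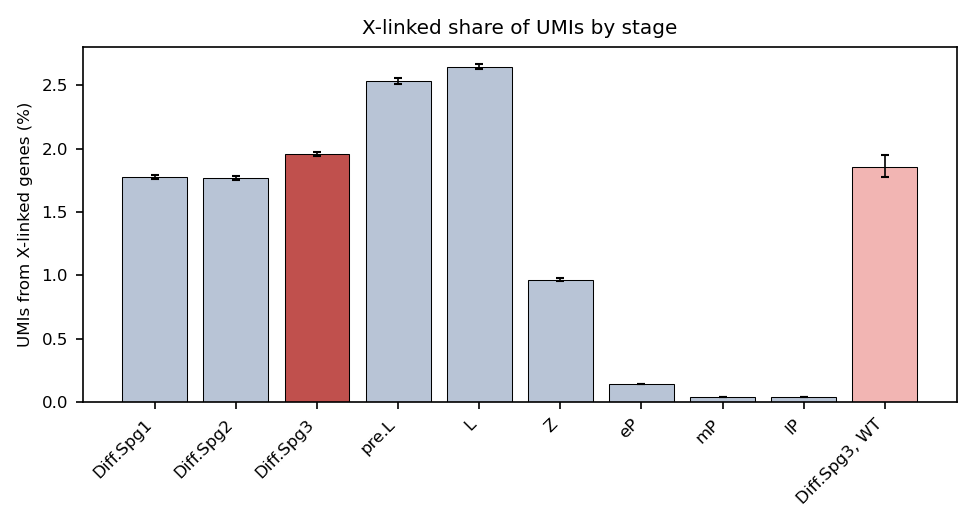
Share of UMIs from X-linked genes (percent, vertical axis) by stage in the library labelled Zfp541-/-, with the wild-type Diff.Spg3 cells at the right. Error bars are exact 95% binomial intervals for counting error. The share is 1.96% in Diff.Spg3, 2.53% in pre.L and 0.0357% in mid pachytene.

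Promoter motifs were counted for the gene groups of both comparisons, over the genes with a RefSeq match. CNCCTCAG was present in 7.66% of promoters of the genes measured against Diff.Spg2, in 7.90% of those of the genes at least 2-fold higher (383 of 498 genes matched) and in 4.77% of those at least 2-fold lower. Against pre.L it was present in 8.06% of promoters of measured genes, 5.84% for genes at least 2-fold higher and 12.1% for genes at least 2-fold lower (1080 of 1380 matched). The genes still low in Diff.Spg3 thus had the highest share. An E2F-type motif was present in 2.86% of promoters of genes measured against Diff.Spg2, and in 1.46% and 1.39% of those of the higher and lower genes. Against pre.L the shares were 2.98%, 2.09% and 3.58%. The shares of CCAAT ranged from 30.6% to 38.9% over the 4 groups.

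The 39 wild-type Diff.Spg3 cells had 93971 UMIs in all and a median of 2333 per cell, 0.207 of the library's median, so they support only summed values. Wild-type Diff.Spg2 and pre.L held 28 and 12 cells. Stra8 had 29, 9 and 39 UMIs in the 3 stages in stage order, or 323, 95.8 and 1544 CPM, which is the same dip. Its level in Diff.Spg3 was lower than in the library labelled Zfp541-/-, with a log2 ratio of -1.31 (-2.53 to -0.46) that has no replicate check. The wild-type cells were put in these stages by the same clustering, so a shared direction is no independent check. The share of all genes with a shared direction was not counted. Of the 10 genes highest over Diff.Spg2, 9 had a UMI in wild-type cells of the stages compared and 9 of 9 lay in the same direction, with 172 UMIs in Diff.Spg3 and 17 in Diff.Spg2. Of the 10 lowest, 6 had a UMI and 5 lay in the same direction. Against pre.L these counts were 8 of 8 for the highest genes (63 and 3 UMIs) and 9 of 9 for the lowest (1 and 28 UMIs). Wild-type pre.L held only 25259 UMIs, and direction was read from CPM with no counts added. With 0.5 added to each sum, Upb1 and Tcea3, at 1 UMI against 0, had a log2 ratio of -0.31 over pre.L, the opposite direction. Prss50 stood at 372 CPM in wild-type Diff.Spg3, Plk1 at 245 CPM and Meioc at 138 CPM, and the X-linked share was 1.86% (1.77 to 1.95%). Elongating spermatid markers, which are foreign to spermatogonia, had 60 UMIs in 26 of the 39 wild-type cells, with at most 5 in a cell. They summed to 638 CPM, against 0.334 CPM in the Diff.Spg3 cells of the library labelled Zfp541-/-. From Diff.Spg1 to late pachytene the wild-type stages had 244 to 862 CPM of these markers. Their part in the wild-type values was not tested.

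Markers of other cell types were at or near 0 in the Diff.Spg3 cells of the library labelled Zfp541-/-, apart from single genes. Of 9 Leydig markers 8 were at 0 (4.34 CPM in all), of 8 macrophage markers 7 (0.668 CPM), and all 6 red cell markers were at 0. The Sertoli list summed to 212 CPM, of which Ctsl, a lysosomal protease also made by other cells, gave 198 CPM, and Amh was at 0. The endothelial list summed to 56.5 CPM, of which Egfl7 gave 54.1 CPM, while Cdh5, Vwf, Kdr and Tek were at 0. Peritubular myoid markers had 84 UMIs in 7 cells, 53 and 25 of them in 2 cells. Round spermatid markers summed to 4.34 CPM. Undifferentiated markers summed to 207 CPM in Diff.Spg2, 86.6 CPM in Diff.Spg3 and 30.8 CPM in pre.L, with Nanos2 and Pou5f1 at 0 in Diff.Spg3. These values leave Diff.Spg3 as germ cells that carried more Kit and Uchl1 RNA than pre.L and less than Diff.Spg2.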

How the data were processed

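Single-cell RNA-seq libraries of germ cells, sorted per the protocol, were used, 1 per genotype. Cell Ranger 3.1.0, Seurat 3.2.0 and mm10 are named in the submitters' processing notes. The deposited matrices hold whole-number UMI counts of 31053 genes with no normalisation. Per the file headers, the table of cells that the authors deposited holds UMI counts, the percent of mitochondrial UMIs, clusters, stages and a pseudotime score, for which the sources used here give no method. The annotated cells all reached 1000 genes and none passed 10% mitochondrial UMIs, as read from the values. No doublet caller was run, and a run without cells above 2 times their stage's median UMIs stood in for it.

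UMIs were summed per gene and stage (Python 3.11.15, numpy 2.4.6, scipy 1.17.1, pandas 2.3.3). Intervals are exact Poisson for sums, Clopper-Pearson for shares and conditional binomial for ratios, and leave out variation between mice and preparations. A 0 allows up to 3 counts. Thinning to 1500 UMIs per cell used a fixed seed. The ratio code was tested on simulated data. Named genes were the 10 highest and 10 lowest log2 ratios in each comparison and the 10 clearest peak and 5 clearest trough genes, at a minimum of 25 CPM, the 10 genes of most UMIs, and in each list the 2 highest and 2 lowest ratios, of which the text gives a part. Other list members given as examples were chosen after their values were seen. The members and the lists were chosen with earlier results of these data known. The genes for which sequence is shown were chosen after their values were seen. Gene coordinates are those of GENCODE on mm10. Alternatives were the minimum level, the counts added, the scaling, thinned cells, the mean of the cells' CPM, the mitochondrial filter, deep cells and both libraries together, and, added after seeing the data, leaving out 2 myoid-marker cells.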

Additional observations from a re-analysis of the deposited data

How the results depend on the processing

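No paired analysis was possible because each genotype had 1 library and no result comes from a test. With a minimum of 50 CPM, 162 genes were at least 2-fold higher and 116 lower than in Diff.Spg2, and 714 higher and 873 lower than in pre.L. With no minimum the counts were 1916, 3543, 3831 and 2979 in the same order. Over the other alternatives they ranged from 424 to 724, 466 to 689, 1385 to 2165 and 1365 to 1539. At full depth the shares of Diff.Spg3 cells with a UMI were 61.3% for Stra8, 38.9% for Dmrtb1, 12.2% for Sohlh2, 48.3% for Mcm5 and 37.8% for Pcna. With cells of at most 5% mitochondrial UMIs only, Diff.Spg3 held 271 cells, 4.34% of those left in the library. With log2 ratios of at least 1 in size, 2035 of 2040 gene values and 70 of 70 list medians kept their sign. These were large ratios recomputed from the same data, so a kept sign is a weak check. Of all 400 list medians under the alternatives, 36 moved by more than the typical counting error of their genes and 20 changed sign, 16 of these where the median was under 0.1 in size. Over Diff.Spg2, a minimum of 50 CPM brought the G1 median from 0.45 to 0.01 and the immediate early and heat shock median from 0.51 to 0.01, and the mitochondrial filter brought the G1 median to 0.07. With no minimum the histone median was 0.67 in place of 1.33 and the X-linked list 0.11 in place of 0.47. Over pre.L, the mitochondrial filter brought regulators of differentiation from 1.38 to 0.71, DNA methylation from 0.98 to 0.41, glycolysis from 0.81 to 0.28 and histones from -0.69 to -1.21. The G1 median turned to -0.68 with a minimum of 50 CPM and to -0.14 with that filter, glycolysis to -0.04 with no minimum, and DNA synthesis to 0.04 with the mean of the cells' CPM. The reversed values were -0.12 (Tagln) and -1.42 (Acta2) over Diff.Spg2 and -0.71 (Acta2) over pre.L without the 2 myoid-marker cells, and -0.21 (Alox8) over Diff.Spg2 and -0.43 (Arhgef40) over pre.L with at most 5% mitochondrial UMIs. For the last 2 genes the cause was not tested. Genes of under 3 UMIs in a stage have wide intervals at this depth.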

Other observations

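A few genes owed their level in Diff.Spg3 to few cells. Of 6494 genes with at least 60 UMIs, 12 had at least 50% of them in 5 cells, and the 60 gene and cell pairs involved 58 different cells. In Diff.Spg2 the same held for 20 of 6797 genes (90 different cells of 100 pairs) and in pre.L for 3 of 4884 (15 of 15). The genes in Diff.Spg3 were Tctn1, Gm43409, Phkg1, Tulp3, Pbld1, Gm16222, Gm26772, Arhgef40, Gm26737, Alox8, Nlrc3 and Gm28578, named after their values were seen. Gm26772, among the 10 highest genes of both comparisons, had UMIs in 10 cells and 45 in the highest of them. Arhgef40 had 49 of its UMIs in 1 cell and Gm26737 had 56. Sums over a stage therefore did not describe the typical cell for these genes.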
